A study of Mus musculus with 6 samples.

Results

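The synaptotagmin-like proteins and the RAB27 vesicle machinery were examined as 8 genes: Sytl1, Sytl2, Sytl3, Sytl4, Sytl5, Rab27a, Rab27b and Unc13d. They were taken by symbol from 19938 genes measured on Affymetrix arrays, and each gene was read from its brightest probe with a single gene symbol. The set was chosen by the fall of Sytl2 in intensity between these same samples, so the values of Sytl2 are given as a description with no test. The other 7 genes were taken as its family and partners and not by a rule on their own values, although earlier results of these data were known.

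RAB27 proteins are small GTPases that sit on secretory vesicles and lysosome-related organelles. In the GTP-bound state they recruit effectors, among them the synaptotagmin-like proteins (SLPs), which bind RAB27 through an N-terminal domain and membranes or their proteins through C-terminal C2 domains, and so tether vesicles to the plasma membrane. MUNC13-4, the product of Unc13d, is another RAB27 effector and primes docked vesicles for fusion. The pathway is best known in blood cells for the release of lytic granules by cytotoxic lymphocytes, and outside them for the transport of pigment granules in melanocytes.

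Pre-B cells transduced with Blnk (Slp65), an adaptor protein of pre-B cell receptor signalling, made up 3 samples. The other 3 samples received pMIG, a retroviral vector with a GFP marker, alone. All 6 samples shared the remaining labels: transformation by BCR-ABL1 (the oncogenic kinase made by the Philadelphia chromosome), a Blnk knockout genotype, the Balb/c strain and an age of 4 weeks. Cells positive for GFP were sorted on day 5 after transduction, and 1 array was run on the total RNA of each sample. Neither the promoter that drives Blnk nor the origin of the replicates (separate cultures, animals or 1 pool) is stated in the labels, so the p-values cover the spread of these samples alone, and that spread may be technical.

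Values are linear array intensities, and the median intensity lay between 67 and 70 on every array. Probes differ in how brightly they bind, so an order of intensities between genes is no order of RNA levels, a sum over probes gives no share of cells, and the array median serves only to say which probes were dim. Blnk itself had intensities of 2714, 3342 and 3022 in Blnk samples, against 972, 926 and 1013 in pMIG samples, so each library fitted its vector label. The signal in pMIG samples was far above the array medians, although all samples are labelled as Blnk knockouts. The knockout is not checked by this probe, because the sources used here do not give the part of the gene that it reads. All 9 measured pre-B cell markers were above the median of every array, with summed intensities of 36350 to 37393 in Blnk samples and 34072 to 35522 in pMIG samples. Of these 9, 2 rose and 1 fell by limma at an adjusted p under 0.05, where 3.61% of all genes were called. Blk, a kinase of B cells, rose by 0.88 on the log2 scale and passed in all 6 fits that each left out 1 array. Cd79a, a receptor chain, rose by 0.31 (limma adjusted p = 0.0468) but passed in none of those 6 (0.0678 without Blnk 1 to 0.151 without pMIG 3), nor after quantile normalization (0.0598) or median centring (0.102). Vpreb1, part of the surrogate light chain, fell by 0.68 (limma adjusted p = 0.00976). It was still lower with Blnk but did not pass without pMIG 2 (0.0502) or pMIG 3 (0.0688). These are bulk samples, in which fewer cells of a type and less RNA per cell cannot be told apart.

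Sytl2 encodes SLP2, a RAB27 effector with both an N-terminal RAB27-binding domain and C2 domains. Its intensity was 70, 62 and 55 in Blnk samples, against 272, 334 and 325 in pMIG samples. The groups lay far apart, and the highest Blnk sample stood below the lowest pMIG sample by a wide margin. The means were 62.3 ± 7.51 in Blnk samples and 310 ± 33.5 in pMIG samples (SD, n = 3 each), a 4.98-fold lower level with Blnk and a log2 difference of -2.32 (Blnk minus pMIG). This was the lowest log2 difference of all 19938 genes, which is what chose it. In 2 of the 3 Blnk samples the intensity was below the array's median, and adding 16 to every intensity before taking log2 gave a difference of -2.06.

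**Figure D1:**
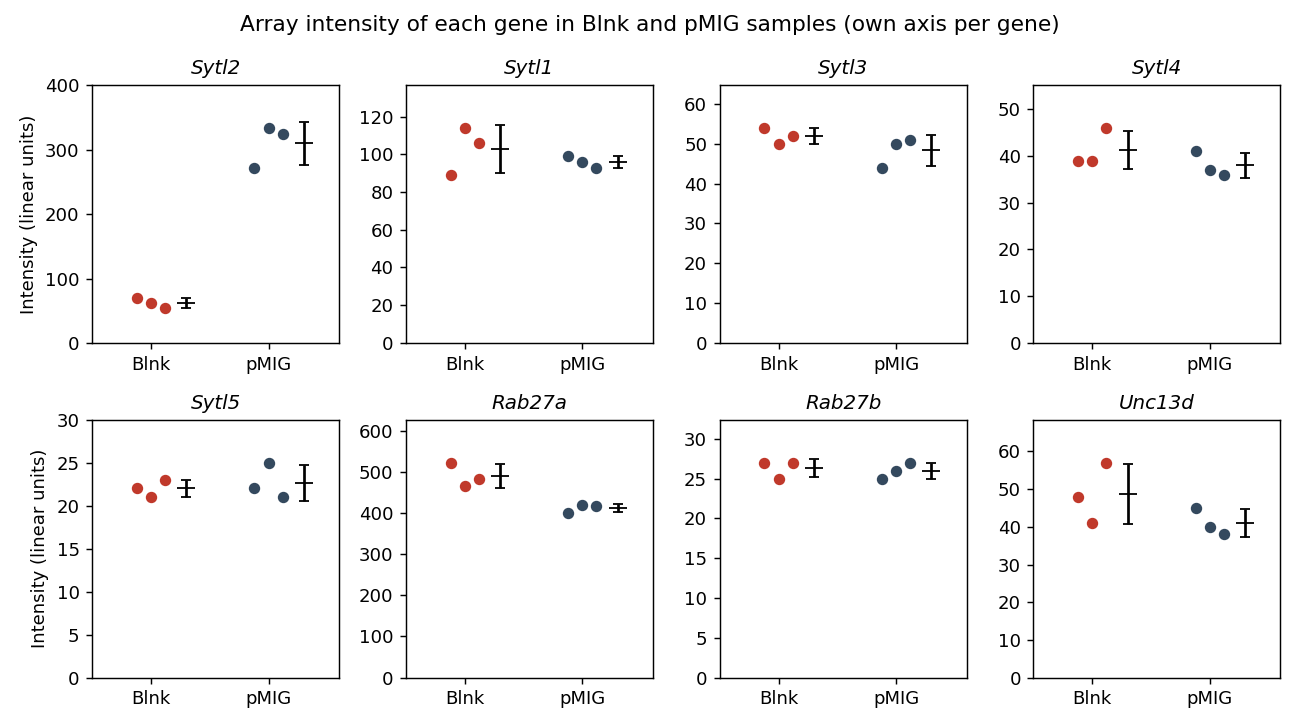
Array intensity (linear units, each gene on its own axis from 0) of the 8 genes in 3 Blnk samples (red, left) and 3 pMIG samples (dark, right). Points are samples, and the bar beside them is the mean with its SD. The Sytl2 points of the Blnk samples (55 to 70) lie below those of the pMIG samples (272 to 334), those of Rab27a are separated the other way (466 to 522 against 401 to 419), and in the other 6 genes the groups overlap.

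None of the partners of Sytl2 passed the test in either direction. Of the 7, 0 were called higher and 0 lower by limma at an adjusted p under 0.05 over all 19938 genes. By the same rule 3.61% of all genes were called, 2.51% higher and 1.1% lower, so a list of this size need not hold any called gene. The log2 differences of the partners ran from -0.04 (Sytl5) to 0.25 (Rab27a), with a median of 0.11, against a median of 0 over all genes. Mean intensity was higher with Blnk in 6 of the 7 and lower in Sytl5 alone. The signs of Rab27b and Sytl5 changed under other processing choices or with 1 array left out. Groups did not overlap in 1 of the 7, Rab27a, where 20% of all genes had separate groups and 11.8% had them with Blnk higher.

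Of the other SLPs, Sytl1 encodes SLP1, a RAB27 effector with the same overall plan as SLP2. It stood at 89, 114 and 106 in Blnk samples, against 99, 96 and 93 in pMIG samples. The spread was wider with Blnk, where 1 sample lay below all pMIG samples and the others above them. The log2 difference was 0.09 (SE 0.0995, limma adjusted p = 0.738), and limma's 95% interval, not adjusted for the number of genes, ran from 9.03% lower to 25.3% higher.

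Sytl3 encodes SLP3, a RAB27 effector that has been linked to lytic granule transport in T cells. Its intensity was 54, 50 and 52 in Blnk samples, against 44, 50 and 51 in pMIG samples. The groups overlapped, with 1 pMIG sample lower than the rest. Its log2 difference was 0.11 (SE 0.081, limma adjusted p = 0.613), with an interval from 5.41% lower to 22.8% higher.

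Sytl4 encodes granuphilin (SLP4), known for docking insulin granules in beta cells. It was measured at 39, 39 and 46 in Blnk samples, against 41, 37 and 36 in pMIG samples, with overlap and 1 Blnk sample above the others. The log2 difference was 0.12 (SE 0.0932, limma adjusted p = 0.63), with an interval from 6.51% lower to 26.2% higher.

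Sytl5 encodes SLP5, and is the only member with more than 1 probe. The brighter probe read 22, 21 and 23 in Blnk samples, against 22, 25 and 21 in pMIG samples. The dimmer one read 15, 12 and 15 in Blnk samples, against 13, 12 and 14 in pMIG samples. Both probes lay far below the array medians and their differences had opposite signs, at -0.04 and 0.10 on the log2 scale, so no direction can be read. For the brighter probe the SE was 0.086 and the limma adjusted p was 0.888, with an interval from 15.3% lower to 11.7% higher.

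Rab27a, the GTPase of lytic and pigment granules, was the member nearest to passing after Sytl2 was set aside. Its intensity was 522, 466 and 483 in Blnk samples, against 401, 419 and 418 in pMIG samples. Every Blnk sample exceeded every pMIG sample, and the means were 490 ± 28.7 with Blnk and 413 ± 10.1 with pMIG (SD, n = 3 each). The difference was 1.19-fold, or 0.25 on the log2 scale (SE 0.0718), and did not pass limma's test (adjusted p = 0.136). Its unadjusted interval ran from 5.76% to 33.2% higher, and it passed under 1 alternative, a variance prior with a trend and robust estimation (limma adjusted p = 0.0346).

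Rab27b is the close relative of Rab27a and shares effectors with it. It was read at 27, 25 and 27 in Blnk samples, against 25, 26 and 27 in pMIG samples. Both groups spanned the same range, and the values are whole numbers of which 1 unit is 3.82% of this gene's mean. The log2 difference was 0.018 (SE 0.0705, limma adjusted p = 0.944), with an interval from 9.59% lower to 13.4% higher.

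Unc13d, which encodes the priming factor MUNC13-4, had intensities of 48, 41 and 57 in Blnk samples, against 45, 40 and 38 in pMIG samples. The Blnk samples were the most scattered of any member, with an SD of 16.5% of the mean, and 1 of them lay within the pMIG range. The log2 difference was 0.24 (SE 0.127, limma adjusted p = 0.446), close in size to that of Rab27a but with an interval from 3.91% lower to 44.7% higher. Sytl3, Sytl4, Sytl5, Rab27b and Unc13d were below the median of every array, so small changes in these 5 genes are poorly measured.

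Over the 7 partners, the lowest lower bound of the unadjusted intervals was 15.3% below the pMIG level, in Sytl5, and the highest upper bound was 44.7% above it, in Unc13d. Both genes were below the median of every array, so these bounds limit the probe intensity and not the RNA level.

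**Figure D2:**
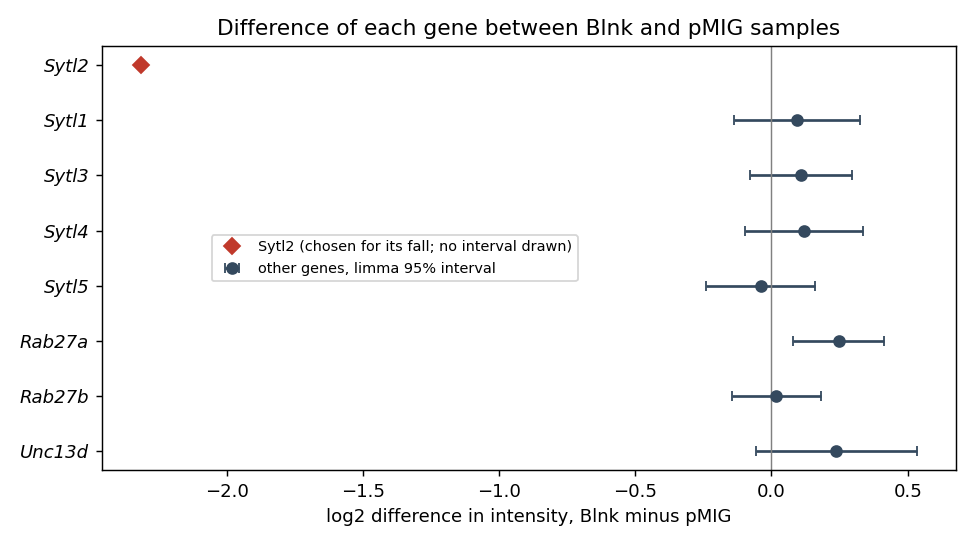
Log2 difference in intensity, Blnk minus pMIG, of each gene. Dark points carry limma's unadjusted 95% interval from 3 samples a group, and the red diamond is Sytl2, drawn without an interval because its fall chose it. Sytl2 lies at -2.32 and the other 7 genes between -0.04 and 0.25.

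The wider machinery was followed in 9 lists of vesicle genes that held 140 distinct measured genes and none of the 8 members. In all, 4 rose and 2 fell, or 4.29% of them, and their median log2 difference was 0.05. The share is near the 3.61% of all genes in the same fit. The lists were not tested as a set, and their counts under other settings are given below. The direct neighbours of RAB27 in the pathway were among the lists with no call. Of the 7 other RAB27 effectors and their myosins, 0 passed (median -0.04), and the smallest adjusted p was that of Myo5a, the motor that carries RAB27A-bound pigment granules (742 ± 75.6 with Blnk and 650 ± 31.4 with pMIG, SD, n = 3 each; limma adjusted p = 0.396). Apart from Myo5a, the genes of that list had group means from 12 to 106, against array medians of 67 to 70. Small changes in the dimmer ones are poorly measured. Of 10 regulators and prenylation factors of RABs, 0 passed (median 0.07), with Rabif, a chaperone of exocytic RABs, at 0.25 (limma adjusted p = 0.117). Of 8 genes of the MUNC13 family or with syntaxin-binding protein (Stxbp) symbols, 0 passed (median 0.03), with Stxbp3 at 0.25 (limma adjusted p = 0.339). The MUNC13 family genes among these 8 had low signal, with group means from 42.7 to 89.7, and 2 of the 8 were below the median of every array.

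SNAREs drive the fusion itself. Of 24 measured, 3 rose and 0 fell, with a median log2 difference of 0.08. Over all genes 2.51% were called higher and 1.1% lower, and the list was not tested as a set. Stx7, a SNARE of late endosomes, had intensities of 750, 749 and 798 in Blnk samples, against 403, 452 and 446 in pMIG samples. It rose by 0.82 on the log2 scale (SE 0.0749, limma adjusted p = 0.00103), with groups well apart. Vamp8, an endosomal and granule SNARE that can pair with Stx7, was measured at 884, 849 and 920 in Blnk samples, against 669, 727 and 698 in pMIG samples (0.34, limma adjusted p = 0.0415). Snap29, a soluble relative of SNAP25, was measured at 405, 382 and 421 in Blnk samples, against 309, 309 and 307 in pMIG samples (0.38, limma adjusted p = 0.0231). Stx7 passed in all 6 fits that each left out 1 array. Vamp8 and Snap29 passed in none of them, at adjusted p of 0.0939 (without pMIG 2) to 0.156 (without pMIG 3) and of 0.0508 (without Blnk 2) to 0.106 (without pMIG 3), and Vamp8 was also lost after repeated quantile normalization (0.0613) or centring on array medians (0.0905).

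Organelle biogenesis genes gave 1 call in each direction. Of 23 measured genes listed for lysosome-related organelle biogenesis, 1 rose and 1 fell (median 0.10). Among all genes 2.51% were called higher and 1.1% lower. Ap3m2, which encodes 1 form of the mu subunit of AP-3 adaptors, stood at 232, 238 and 256 in Blnk samples, against 180, 183 and 174 in pMIG samples (0.43, limma adjusted p = 0.0153). Dtnbp1, which encodes dysbindin of the BLOC-1 complex, stood at 622, 635 and 603 in Blnk samples, against 773, 767 and 772 in pMIG samples (-0.31, limma adjusted p = 0.0382). With 1 array left out, Ap3m2 passed only without Blnk 1 (up to 0.0893, without pMIG 3) and Dtnbp1 never did (0.0907, without Blnk 1, to 0.143, without pMIG 3).

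Among 25 synaptotagmins and other C2 proteins, relatives of the SLPs by their C2 domains, 0 rose and 1 fell (median 0.01). By the same rule 2.51% of all genes were called higher and 1.1% lower. The gene that fell was Mctp1, at 18, 19 and 18 in Blnk samples, against 33, 24 and 29 in pMIG samples (-0.63, limma adjusted p = 0.0267). It was dim, as were 14 of the 25 on every array, and with 1 array left out it passed only without pMIG 2 (up to 0.14, without pMIG 3).

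Secretory and endosomal RABs (21 measured, median 0.10), the exocyst complex (9, median -0.09) and granule cargo and membrane proteins (13, median 0.06) had 0 members called in either direction by limma. The smallest adjusted p in each belonged to the early endosomal GTPase Rab5b (0.26, limma adjusted p = 0.118), the exocyst subunit Exoc4 (-0.18, limma adjusted p = 0.319) and Ctsc, the protease that activates granule enzymes (0.29, limma adjusted p = 0.0683). Of the cargo genes, 8 were below the median of every array.

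**Figure D3:**
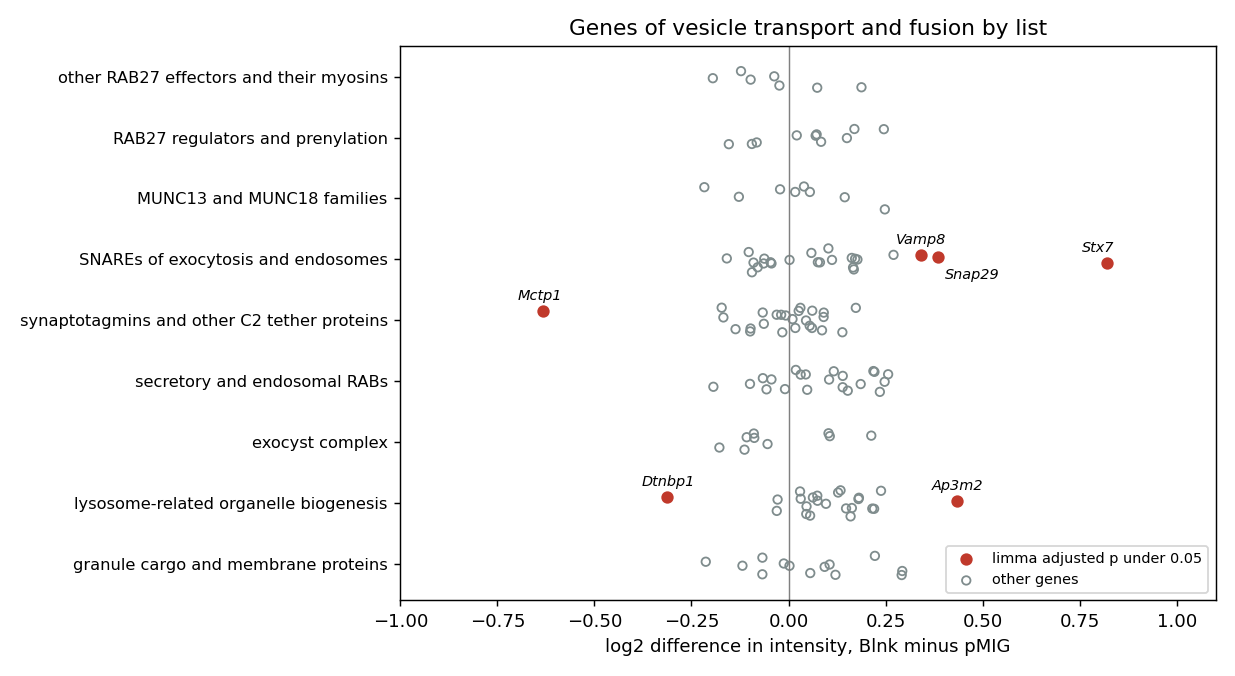
Log2 difference in intensity, Blnk minus pMIG, of each measured gene of 9 lists of vesicle transport and fusion, 1 row a list, with points spread vertically only for legibility. Filled red points are the 6 genes past limma's adjusted p of 0.05: Stx7, Snap29, Vamp8 and Ap3m2 were higher, and Mctp1 and Dtnbp1 lower.

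Markers of cell types known for RAB27-dependent secretion were mostly dim. Of 13 T and NK cell markers 0 passed and 10 were below the median of every array, with a summed intensity of 523 to 627 in Blnk samples and 513 to 613 in pMIG samples. The probes with the highest signal in this list were those of Cd8a (191 ± 60.8 with Blnk and 170 ± 18.7 with pMIG, SD, n = 3 each) and Cd3e (81.3 ± 9.07 with Blnk and 80.7 ± 9.29 with pMIG). All 8 mast cell and basophil markers were below the medians, with sums of 213 to 221 in Blnk samples and 204 to 249 in pMIG samples, and so were all 10 myeloid markers (300 to 319 with Blnk and 293 to 314 with pMIG). In these lists the highest signals were those of Hdc (57.7 ± 5.51 with Blnk and 60.3 ± 5.03 with pMIG), Tpsb2 (51.0 ± 1.73 with Blnk and 53.3 ± 2.52 with pMIG), Mpo (44.0 ± 3.46 with Blnk and 44.3 ± 4.04 with pMIG) and Elane (40.7 ± 6.81 with Blnk and 44.0 ± 3 with pMIG). Melanocyte markers (6 measured, 5 below the medians) summed to 243 to 267 in Blnk samples and 246 to 262 in pMIG samples, and platelet markers (6, 3 below) to 285 to 331 with Blnk and 272 to 307 with pMIG. The highest signals there were those of Pmel (68.7 ± 2.52 with Blnk and 69.7 ± 3.21 with pMIG), Mitf (51.3 ± 3.79 with Blnk and 56.0 ± 1 with pMIG), Itga2b (75.3 ± 3.21 with Blnk and 73.7 ± 15.0 with pMIG) and Itgb3 (71.7 ± 7.23 with Blnk and 68.7 ± 6.35 with pMIG). The erythroid sum (4 measured, 2 below the medians, 0 called) was 3621 to 3921 in Blnk samples and 4044 to 4076 in pMIG samples. It held Tfrc, which dividing cells also express (3575 ± 170 with Blnk and 3904 ± 23.1 with pMIG), and Epor (73.0 ± 6.25 with Blnk and 69.0 ± 8 with pMIG). The stromal and endothelial sum (8 measured, 4 below the medians) was 1149 to 1261 in Blnk samples and 902 to 979 in pMIG samples. Of these 8, Pecam1, which B-lineage cells also express, rose by 0.64 (767 ± 40.6 with Blnk and 493 ± 22.3 with pMIG, SD, n = 3 each; limma adjusted p = 0.00339), and Col1a1 was at 117 ± 10.97 with Blnk and 128 ± 19.4 with pMIG. The part of these markers in the level of Sytl2 was not tested.

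The genes whose pattern over the 6 arrays was most like that of Sytl2 were taken by Pearson correlation of log2 intensity among genes at or above the median level. They were P2rx3 (r = 0.998), Tmc7 (0.997), Car12 (0.997), Txnrd3 (0.997) and Sipa1l1 (0.996). P2rx3 encodes an ATP-gated ion channel, Car12 a carbonic anhydrase of the cell surface and Txnrd3 a thioredoxin reductase. All 5 were lower with Blnk, for example P2rx3 at 103 ± 3.21 in Blnk samples and 237 ± 10.5 in pMIG samples, and Txnrd3 at 551 ± 50.3 in Blnk samples and 1243 ± 11.9 in pMIG samples (SD, n = 3 each). With 6 arrays in 2 groups such a correlation mostly restates the difference between groups, and the arrays are shared by every gene.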

How the data were processed

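The deposited intensities are linear whole numbers from 3 to 22187, 1 per probe and array. The submitters' processing notes name RMA and no version. Since RMA yields log2 values, the authors probably converted them back to linear intensities and rounded them, although no source used here says so. Log2 was taken with nothing added. Platform annotation gave 1 symbol to 21789 of 35421 probes, several to 1621 and none to 12011, and the brightest single-gene probe stood for each of 19938 genes. The 2 groups were compared in R 4.3.3 with limma 3.58.1 (lmFit, eBayes), with group as the only term, two-sided, Benjamini-Hochberg over all genes, threshold 0.05. The script was tested on simulated data. Precision is limited by 3 arrays a group.

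The members and lists were chosen with earlier results of these data known. Named genes were all members, Blnk, up to 4 called genes of each list (otherwise the 1 with the smallest adjusted p), the 2 markers of each other cell type with the highest mean signal, and the 5 genes most like Sytl2. Some genes of the lists are not reported here. Alternatives were the replicate number as a block, repeated quantile normalization, median centring, leaving out genes below the 40th percentile, adding 16, averaging probes, testing every probe, array weights, a trended robust prior, and each array left out.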

Additional observations from a re-analysis of the deposited data

How the results depend on the processing

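The difference of Sytl2, which chose the set, is described here with no test. It lay between -2.41 and -2.23 on the log2 scale with any 1 array left out. With 16 added it moved beyond its replicate spread (-2.06). The block, the trended robust prior, the probe choices and leaving out dim genes cannot change it. Each of these keeps the group means of its only probe. Of the 7 partners, 0 passed under the alternatives except with the trended robust prior, where 1 did (Rab27a, 0.25, adjusted p = 0.0346), and without dim genes 2 of the 7 (Sytl1 and Rab27a) were tested. Signs near 0 changed: Sytl5 was 0.031 with its probes averaged and ranged from -0.093 to 0.033 with 1 array left out, and Rab27b was -0.018 after quantile normalization, -0.017 after median centring, -0.0096 with array weights and -0.0098 to 0.055 with 1 array left out. All genes called numbered 720 (500 higher, 220 lower), 1228 without dim genes, 1100 with 16 added, 1539 with the trended robust prior and 267 to 437 with 1 array left out. The split was 410 higher and 327 lower after quantile normalization and 417 and 291 after median centring. With the replicate number as a block 289 genes passed. Group was planned as the only term, and the labels do not say what the numbers stand for. Deviations of same-numbered samples correlated at -0.187, 0.058 and -0.12, and those of differently numbered samples at -0.21 to 0.283. With 3 samples a group, centred on their means, these values cannot decide whether samples were paired. Under the block 0 partners passed, and of the 6 called vesicle genes Stx7 alone did. Of these 6, 1 or 2 passed with 1 array left out, Stx7 always among them, and 2 (Stx7 and Ap3m2) when every probe was tested. Of the 140 vesicle genes, 13 rose and 2 fell with the trended robust prior, where 1021 and 518 of all 19938 genes did. With 16 added the counts were 9 and 2, against 741 and 359 over all genes. Without dim genes they were 10 and 1 of 111, against 807 and 421 of 11963. Rounding to whole numbers and low signal limit the 5 members below the array medians.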

Other observations

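The genes that lie next to Sytl2 in gene order were examined after its values were seen, to describe whether the locus moved as a block. Gene order was taken from a RefSeq table of the GRCm38.p6 assembly. The 3 nearest measured genes on either side were Hikeshi, Eed and Ccdc83, and Ccdc89, Crebzf and Tmem126a. Of these 6, 0 rose and 1 fell by limma with adjustment over all genes, where 3.61% of all genes were called and 1.1% called lower. Ccdc83 and Ccdc89, the measured genes next to Sytl2, were dim, at 13.7 ± 2.08 and 16.7 ± 3.51 in Blnk samples and 14.3 ± 0.577 and 15.3 ± 2.89 in pMIG samples (SD, n = 3 each), and did not pass (limma adjusted p = 0.816 and 0.844). The gene that fell was Crebzf, a bZIP transcription regulator, at 751, 795 and 735 in Blnk samples, against 985, 1016 and 1065 in pMIG samples (-0.43, limma adjusted p = 0.0163). With 1 array left out it passed only without Blnk 2 or pMIG 1, reaching 0.0899 without pMIG 3. Tmem126a was at 111 ± 40.5 with Blnk and 63.3 ± 13.6 with pMIG (0.78, limma adjusted p = 0.17), and Hikeshi (-0.05, limma adjusted p = 0.879) and Eed (0.12, limma adjusted p = 0.693) did not pass.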
